A study of Mus musculus with 22 samples.

Results

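The transcriptomes of mouse microglia given CLA or bafilomycin A1 (Baf A1) together with lipopolysaccharide (LPS) were compared directly, by RNA sequencing of 6 LPS+CLA and 5 LPS+Baf A1 libraries out of the 22 in the series. These 11 libraries are all those whose titles name either combination. Microglia are the resident macrophages of the brain. Both groups, and every other group of the series, received LPS at 100 ng/ml for 24 h. CLA was given at 50 nM in the LPS+CLA group and Baf A1 at 10 nM in the LPS+Baf A1 group, so no culture without LPS enters the comparison. A further 3 libraries had LPS alone, and their levels are given as a description only. The cells of every group were primary microglia of C57BL/6 mice aged 1 to 3 days, shaken off mixed cortical glia after 8 to 10 days of culture with 20% serum. The labels do not spell out CLA and give 1 dose of each agent at 1 time. They do not say whether the replicates came from separate cultures or animals, so the p-values measure the spread between these libraries, which may be technical.

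LPS is a bacterial cell wall component sensed by Toll-like receptor 4. An arm of that signal acts through NF-kB and drives cytokines such as TNF. Another arm induces type I interferon, which returns to the cell through its receptor and switches on antiviral genes through interferon-stimulated response elements. Baf A1 blocks the vacuolar proton pump (V-ATPase) that acidifies lysosomes, so that lysosomal degradation and the last step of autophagy stall. The series' title concerns a staged block of autophagy in microglia and linoleic acid, and the contrast asks how the transcriptional states under the 2 agents differ.

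The libraries expressed markers of microglia and macrophages, whose sum cannot tell these cell types apart. The summed level of 10 defining microglia and macrophage markers was 2530 to 2820 FPKM (fragments per kilobase of transcript, scaled to the number of mapped fragments) in LPS+CLA and 2650 to 2780 FPKM in LPS+Baf A1, and none of the 10 was at 0 in a group. LPS+CLA replicate 2 stood apart from its 5 group mates. The standard deviation of its log2 differences to them was 0.275 to 0.28, against 0.136 to 0.155 among the others. It lay outside the range of its mates in 66% of the genes tested. For the other LPS+CLA libraries that share was 24.5% to 29%, and for the LPS+Baf A1 libraries 31.8% to 45.1%. Among the genes that differed at least 2-fold, replicate 2 lay between the LPS+Baf A1 mean and the mean of its mates in 171 of 284 (60.2%). A library only slightly on the LPS+Baf A1 side of its mates is counted too. No other library was counted, so the share does not show that replicate 2 was intermediate. Replicate 2 is an open symbol in the plots. Genes named below whose call changed without it are given both ways, as are some other genes and lists. Other differences are given only with it, and the genes for which it stood out are listed further on. Y-linked genes, looked at after their values were seen, also differed. Ddx3y was between 4.86 and 7.03 FPKM in the LPS+CLA libraries (median 6.49 FPKM), against 4.54, 4.44, 4.32, 4.14 and 4.93 FPKM in the LPS+Baf A1 libraries (adjusted p = 0.000266, limma), the lowest LPS+CLA value being replicate 2. Uty was likewise higher (0.33 log2), and Eif2s3y did not pass (0.28, adjusted p = 0.0944, called at 0.42 without replicate 2). Kdm5d passed narrowly (0.26, adjusted p = 0.0329), a call lost without LPS+Baf A1 replicate 1 or 2 and without LPS+CLA replicate 1, 3, 4, 5 or 6 and under median-of-ratios scaling (0.19). Whether the sex of the pups has a part in any result below was not tested.

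The treatments gave widely different transcriptomes. Of 9653 genes that reached 1 FPKM in 3 or more of the 11 libraries, 6130 (63.5%) passed an adjusted p of 0.05 in limma, fitted to log2(FPKM + 1). In LPS+CLA 4059 genes (42%) were higher and 2071 (21.5%) lower. Most differences were small. In all, 284 genes (2.94%) also differed at least 2-fold, 99 of them (1.03%) higher and 185 (1.92%) lower, and the median difference over all genes was 0.09 on the log2 scale. Differences below are on that scale, with their SE after the ± sign. The libraries of the groups did not overlap in 4204 genes (43.6%). The balance of higher to lower calls depended on the scaling. The share of higher genes among those called was 66.2% on FPKM as deposited, 50.1% after median-of-ratios scaling (2883 higher, 2876 lower) and 54.7% after quantile normalization (3208 higher, 2656 lower). The shares of all genes, 42% higher and 21.5% lower, are the background for each list below. Median-of-ratios scaling moved most lists towards lower calls, and its split is added for some of them.

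**Figure D1:**
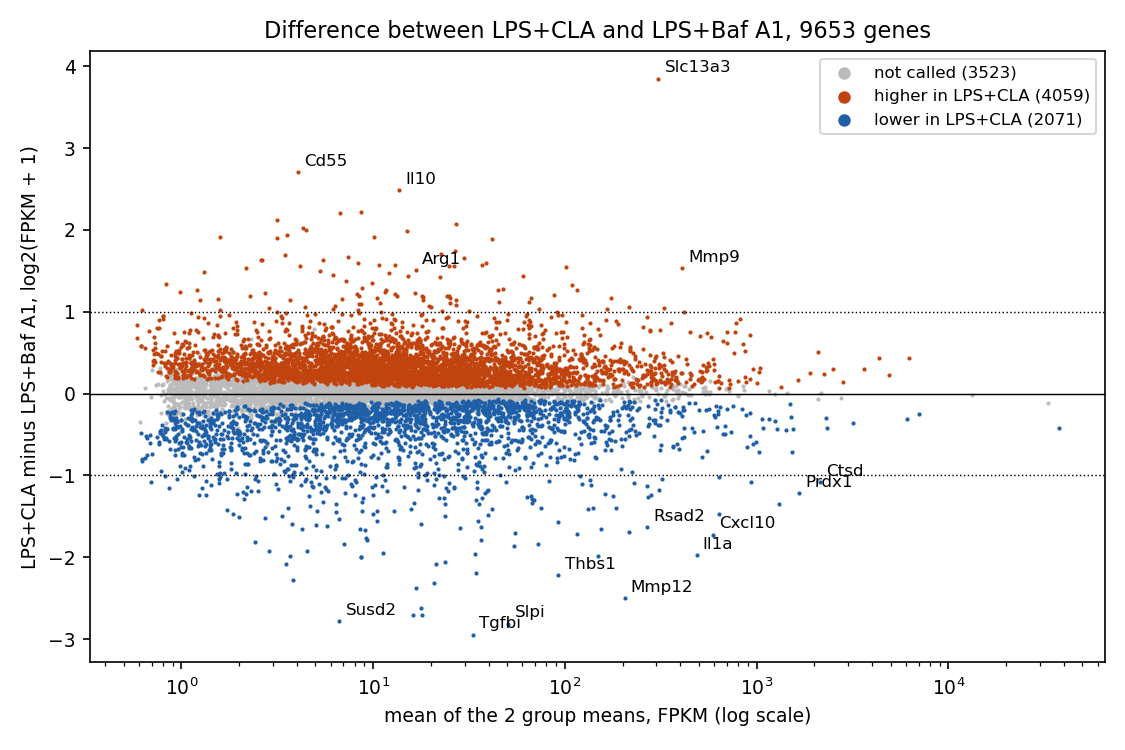
Difference between LPS+CLA and LPS+Baf A1 for each of the 9653 genes tested (y axis, log2(FPKM + 1)) against its level (x axis, mean of the 2 group means in FPKM, log scale). Red points were called higher in LPS+CLA (4059), blue points lower (2071) and grey points not called. Dotted lines mark a 2-fold difference, and Slc13a3 lies highest at 3.85 and Tgfbi lowest at -2.94.

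The largest rise was that of Slc13a3, a sodium-coupled carrier that takes up dicarboxylates such as succinate. It was between 349.9 and 631 FPKM in the LPS+CLA libraries (median 617 FPKM), against 37.6, 36.2, 41.6, 39.3 and 36.3 FPKM in the LPS+Baf A1 libraries (log2 difference 3.85 ± 0.13, adjusted p = 7.32e-11). LPS+CLA replicate 2 was the lowest of its group and still far above every LPS+Baf A1 library. The LPS libraries, with 56.0, 53.6 and 70.6 FPKM, lay near LPS+Baf A1. Cd55, which protects cells from complement by breaking up its convertases, was between 3.61 and 9.26 FPKM in the LPS+CLA libraries (median 8.50 FPKM), against 0.44, 0.19, 0.32, 0.21 and 0.38 FPKM in the LPS+Baf A1 libraries (2.70 ± 0.17, adjusted p = 1.7e-08). Every LPS+Baf A1 library thus had less than 1 FPKM of Cd55, as did the LPS libraries. Il10, the main anti-inflammatory cytokine of macrophages, was between 18.1 and 25.8 FPKM in the LPS+CLA libraries (median 24.9 FPKM), against 3.75, 2.25, 3.59, 3.67 and 3.95 FPKM in the LPS+Baf A1 libraries (2.49 ± 0.11, adjusted p = 5.28e-10). The groups did not overlap for Il10. These 3 led the 15 largest rises among genes that passed the test, did not overlap and averaged 5 FPKM or more in LPS+CLA, and for Il10 the LPS libraries at 5.71, 5.98 and 11.2 FPKM lay between the groups. Outside the 15 largest rises by that rule, Mmp9, a gelatinase that cuts matrix proteins, was between 589.7 and 614 FPKM in the LPS+CLA libraries (median 610.0 FPKM), against 206, 214, 208, 208 and 207 FPKM in the LPS+Baf A1 libraries (1.53 ± 0.024, adjusted p = 3.89e-14). For Mmp9 replicate 2 lay close to its mates, and the groups were far apart.

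Other genes among the 15 largest rises were of several kinds, and the lack of overlap in them comes from the way they were chosen. Some take part in signalling. The median of Pim2, a serine/threonine kinase that promotes survival, was 67.5 FPKM in LPS+CLA, against 17.2 FPKM in LPS+Baf A1 (1.89). Dusp2, a phosphatase that switches off MAP kinases, was at 40.8 FPKM in LPS+CLA and at 11.8 FPKM in LPS+Baf A1 by median (1.75). For Shisa3, an inhibitor of Wnt and FGF receptor maturation, the medians were 14.9 FPKM in LPS+CLA and 2.32 FPKM in LPS+Baf A1 (2.22). Ccr3, the eotaxin receptor, had a median of 7.93 FPKM in LPS+CLA and 1.26 FPKM in LPS+Baf A1 (log2 difference 2.0). Others encode carriers, enzymes and their regulators. The median of Flvcr2, a choline transporter, was 5.73 FPKM in LPS+CLA, against 0.57 FPKM in LPS+Baf A1 (2.13). Has1, which makes hyaluronan, was at 6.60 FPKM in LPS+CLA and at 0.98 FPKM in LPS+Baf A1 by median (2.02). For Fxyd2, a regulator of the sodium pump, the medians were 16.9 FPKM in LPS+CLA and 3.72 FPKM in LPS+Baf A1 (1.92). Urah, an enzyme of urate breakdown, had a median of 22.7 FPKM in LPS+CLA and 5.31 FPKM in LPS+Baf A1 (log2 difference 1.98). The remaining 4 were Ndrg1, a gene induced by hypoxia (2.21), Slc35g1 (1.94), Ifitm7 of the interferon-induced transmembrane family (1.90) and Trp53rka (2.07). Trp53rka is uncertain, since 35.6% of the 50-base stretches of its transcripts also occur in other genes, and the authors' counting could have split or moved such reads. Further genes with at least 20% of their transcripts shared carry that percentage below and are uncertain in the same way.

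The largest falls held matrix proteins, secreted defence proteins and lipid carriers. They were picked by the same rule as the rises, so their lack of overlap comes from the choice. Tgfbi, an extracellular matrix protein induced by TGF-beta, was between 4.47 and 7.95 FPKM in the LPS+CLA libraries (median 7.34 FPKM), against 58.7, 58.8, 59.2, 59.4 and 60.4 FPKM in the LPS+Baf A1 libraries (-2.94 ± 0.10, adjusted p = 4.58e-11). The LPS libraries had 65.0, 74.0 and 60.6 FPKM, a level like that of LPS+Baf A1. Slpi, a secreted inhibitor of neutrophil elastase, was between 8.65 and 26.0 FPKM in the LPS+CLA libraries (median 10.6 FPKM), against 91.4, 101, 85.5, 82.4 and 83.2 FPKM in the LPS+Baf A1 libraries (-2.81 ± 0.21, adjusted p = 1.29e-07, -3.03 without replicate 2). Replicate 2 was the highest LPS+CLA library for Slpi. Thbs1, the matrix glycoprotein thrombospondin that activates TGF-beta, was between 27.9 and 34.4 FPKM in the LPS+CLA libraries (median 32.6 FPKM), against 151, 158, 146, 155 and 154 FPKM in the LPS+Baf A1 libraries (-2.22 ± 0.047, adjusted p = 1.15e-12). The LPS libraries stood above both groups for Thbs1 at 321, 339 and 269 FPKM. Mmp12, the macrophage elastase, was between 48.8 and 65.8 FPKM in the LPS+CLA libraries (median 62.8 FPKM), against 406, 389, 272, 343 and 335 FPKM in the LPS+Baf A1 libraries (-2.50 ± 0.097, adjusted p = 1.65e-10). Here the LPS libraries had 45.3, 48.3 and 50.1 FPKM, so LPS+Baf A1 was the group that lay apart.

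**Figure D2:**
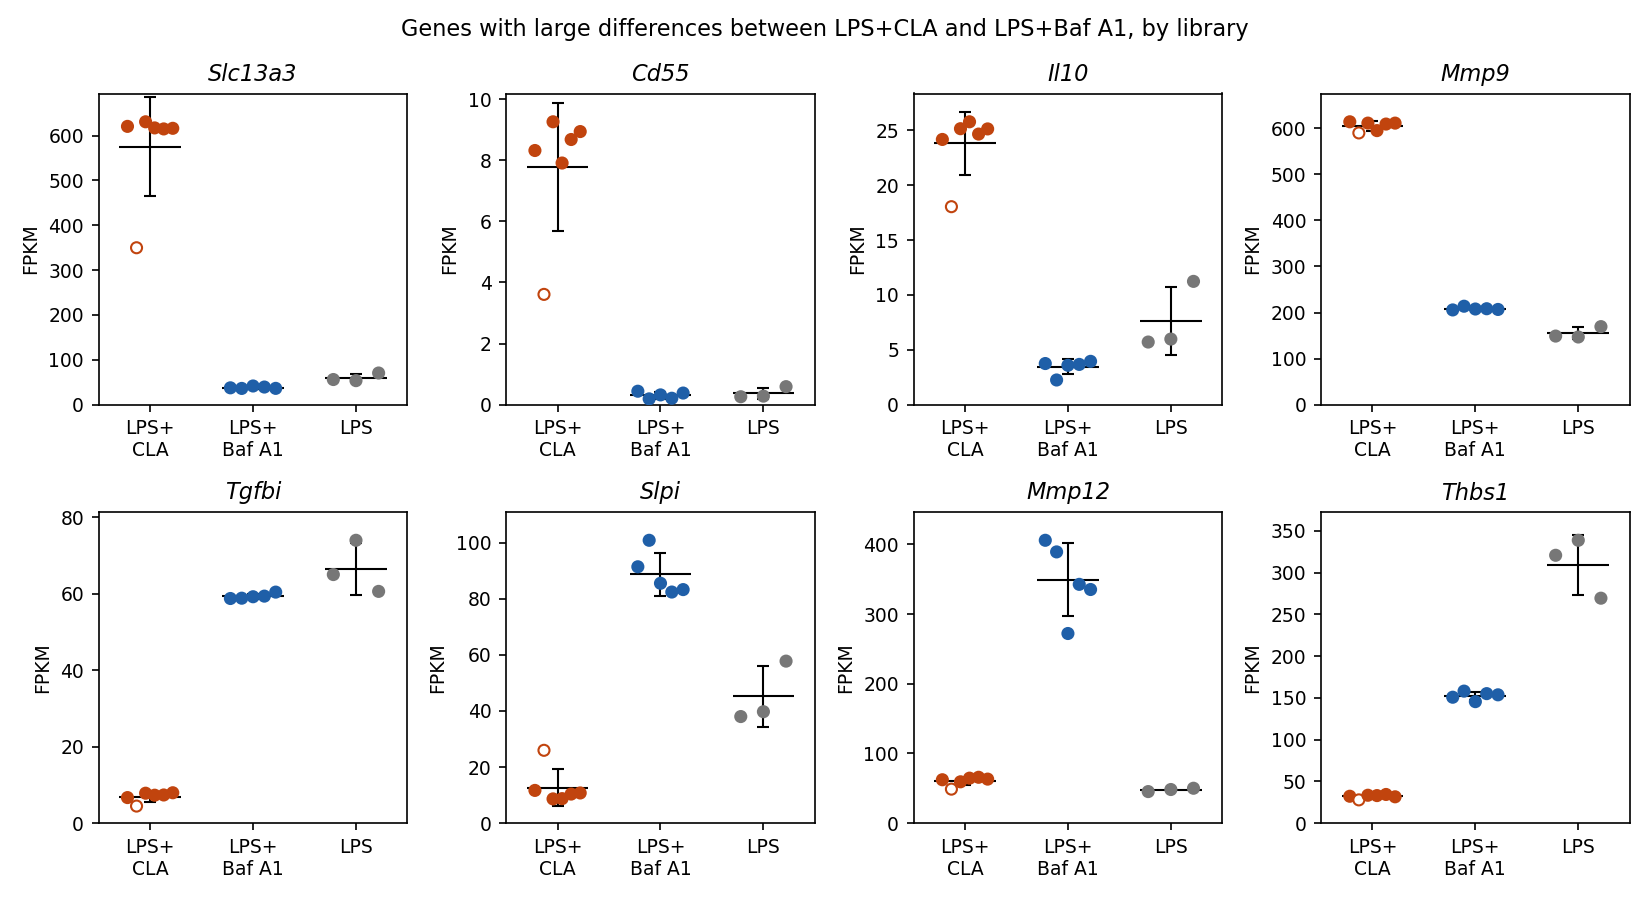
FPKM of 8 genes in each LPS+CLA (red, n = 6), LPS+Baf A1 (blue, n = 5) and LPS (grey, n = 3) library. Bars are means and SD, and the open symbol is LPS+CLA replicate 2. Slc13a3, Cd55, Il10 and Mmp9 were higher than in LPS+Baf A1 in every LPS+CLA library, and Tgfbi, Slpi, Mmp12 and Thbs1 lower in every one. Except for Mmp9, they are among the largest rises and falls, which were picked from genes without overlap. LPS alone sat near LPS+Baf A1 for Slc13a3 and Tgfbi but near LPS+CLA for Mmp12.

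Several other falls shared the arrangement of Mmp12, with LPS+Baf A1 above both LPS+CLA and LPS. The median of Susd2, a sushi-domain membrane protein, was 0.93 FPKM in LPS+CLA, against 12.7 FPKM in LPS+Baf A1 (-2.78). Fn1, fibronectin, was at 5.42 FPKM in LPS+CLA and at 28.3 FPKM in LPS+Baf A1 by median (-2.38). For Hp, the haemoglobin scavenger haptoglobin, the medians were 10.6 FPKM in LPS+CLA and 56.8 FPKM in LPS+Baf A1 (-2.19). Il12b, the p40 subunit of interleukin-12, had a median of 0.705 FPKM in LPS+CLA and 6.40 FPKM in LPS+Baf A1 (log2 difference -2.09). The means in LPS alone were 0.807 FPKM for Susd2, 5.80 FPKM for Fn1, 11 FPKM for Hp and 0.407 FPKM for Il12b, all nearer to LPS+CLA. Another set was nearer to LPS+Baf A1 in LPS alone. The median of Fabp3, a fatty acid carrier, was 3.96 FPKM in LPS+CLA, against 31.1 FPKM in LPS+Baf A1 (-2.71, 37.3% shared). H2-M2, a non-classical MHC class I gene, was at 3.62 FPKM in LPS+CLA and at 28.8 FPKM in LPS+Baf A1 by median (-2.70). For Fam20c, the kinase of secreted proteins, the medians were 8.82 FPKM in LPS+CLA and 39.3 FPKM in LPS+Baf A1 (-2.06). Their LPS means were 23.2 FPKM for Fabp3, 18.2 FPKM for H2-M2 and 28.3 FPKM for Fam20c. Of the remaining 4, Ly6i (-2.62) and Rgs1, which curbs G-protein signalling (-1.99), were highest in LPS alone, and Osbpl3 of the oxysterol-binding protein family (-2.31) and Gp6, a collagen receptor known from platelets (-2.28), lay in LPS alone between the groups.

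Most genes in the list of pro-inflammatory cytokines and receptors were lower in LPS+CLA. Of 28 tested members of that list, 19 fell (67.9%, against 21.5% of all genes) and 6 rose, with a median of -0.31. Il1a, an interleukin-1 form released by damaged or activated cells, was between 189 and 204 FPKM in the LPS+CLA libraries (median 194 FPKM), against 884, 869, 607, 750.5 and 771 FPKM in the LPS+Baf A1 libraries (-1.97 ± 0.076, adjusted p = 1.22e-10). Il6, the cytokine of the acute phase response, was between 34.1 and 60.1 FPKM in the LPS+CLA libraries (median 38.1 FPKM), against 119, 116, 90.5, 111 and 106 FPKM in the LPS+Baf A1 libraries (-1.40 ± 0.12, adjusted p = 4.44e-07). For both, the groups did not overlap, and LPS alone, with a mean of 147 FPKM of Il1a and 47.6 FPKM of Il6, lay near LPS+CLA. Tnf was between 136 and 246 FPKM in the LPS+CLA libraries (median 138 FPKM), against 243, 245, 230.5, 238 and 240.5 FPKM in the LPS+Baf A1 libraries (-0.65 ± 0.13, adjusted p = 0.000694, -0.78 without replicate 2). Replicate 2 lay above every LPS+Baf A1 library for Tnf, and its 5 mates below all of them. Il1b was between 2412 and 4229.7 FPKM in the LPS+CLA libraries (median 2575 FPKM), against 3742, 3925, 3021, 3528 and 3540.2 FPKM in the LPS+Baf A1 libraries, again with replicate 2 above all others. Its difference of -0.36 ± 0.13 (adjusted p = 0.024, -0.48 without replicate 2) lost its call when LPS+CLA replicate 3 or LPS+Baf A1 replicate 1 or 2 was left out. Il12a, the partner of Il12b in interleukin-12, had a median of 0.575 FPKM in LPS+CLA and 3.03 FPKM in LPS+Baf A1 (log2 difference -1.47). The median of Csf1, the growth factor of macrophages, was 2.36 FPKM in LPS+CLA, against 5.90 FPKM in LPS+Baf A1 (-1.12). Rises in this list included genes that restrain cytokine signals, Il10 among them. Il1rn, the interleukin-1 receptor antagonist, was at 777 FPKM in LPS+CLA and at 524 FPKM in LPS+Baf A1 by median (0.64). For Ebi3, a subunit of interleukin-27, the medians were 229 FPKM in LPS+CLA and 153 FPKM in LPS+Baf A1 (0.62). Il6ra rose less (0.36), and Il18 did not pass the test (-0.05, 95% interval -0.18 to 0.07, called at -0.15 under median-of-ratios scaling).

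Chemokine genes moved in both directions, with more of them lower than higher. Among 11 tested CXC chemokines 6 fell and 2 rose (54.5% lower, 18.2% higher), or 6 and 1 under median-of-ratios scaling. Among 9 CC chemokines 5 fell and 2 rose (55.6% lower, 22.2% higher). Cxcl1, a neutrophil attractant, had a median of 19.7 FPKM in LPS+CLA and 54.8 FPKM in LPS+Baf A1 (log2 difference -1.49). Its relatives Cxcl2 (-1.27) and Cxcl3 (-1.24) fell with it. The median of Ccl3, a macrophage inflammatory protein, was 563 FPKM in LPS+CLA, against 1228 FPKM in LPS+Baf A1 (-1.08). Smaller falls were those of Ccl4 (-0.54) and the monocyte attractant Ccl2 (-0.47). Cxcl10, which draws T cells and is induced by interferon, was between 250.2 and 348 FPKM in the LPS+CLA libraries (median 263 FPKM), against 893, 875, 936, 910.5 and 899 FPKM in the LPS+Baf A1 libraries (-1.72 ± 0.07, adjusted p = 2.07e-10). No LPS+CLA library reached the LPS+Baf A1 range for Cxcl10, and the LPS libraries stood above both at 1735, 1713 and 2289 FPKM. The CXC chemokines that rose were Cxcl9 and Ppbp. Cxcl9, like Cxcl10 a ligand of CXCR3, was at 13.5 FPKM in LPS+CLA and at 8.67 FPKM in LPS+Baf A1 by median (0.67). Ccl8 was between 58.8 and 67.9 FPKM in the LPS+CLA libraries (median 62.2 FPKM), against 27.6, 24.8, 34.2, 29.0 and 26.5 FPKM in the LPS+Baf A1 libraries (1.12 ± 0.066, adjusted p = 7.92e-09), a rise without overlap. Ccl6 rose (0.97, 1.15 without replicate 2), with replicate 2 at 63.2 FPKM inside the LPS+Baf A1 range. Ppbp, a platelet chemokine precursor, passed narrowly (0.50, adjusted p = 0.0484) with overlapping groups, a call lost in 13 of 20 alternatives, among them each of LPS+Baf A1 replicates 3, 4 and 5 and LPS+CLA replicates 1, 3, 4, 5 and 6 left out, a pseudocount of 0.1, no filter, a filter over all 22 libraries and median-of-ratios scaling. Ccl7 did not pass (0.06, 95% interval -0.01 to 0.13), though it was called at 0.09 without LPS+Baf A1 replicate 3.

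**Figure D3:**
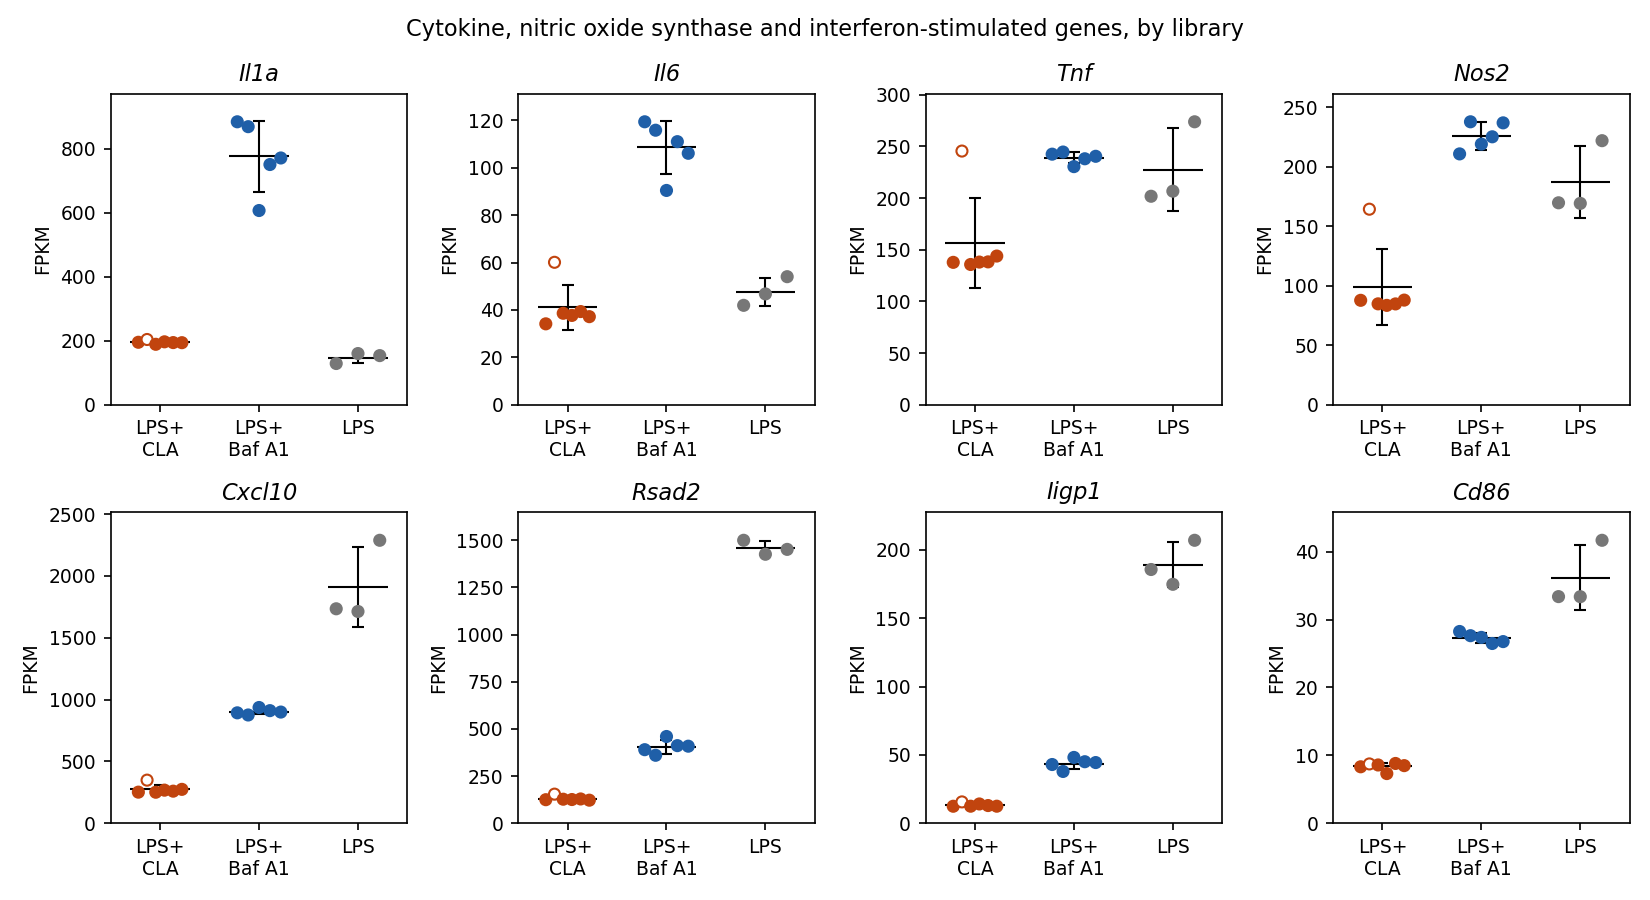
FPKM of 8 genes in each LPS+CLA (red, n = 6), LPS+Baf A1 (blue, n = 5) and LPS (grey, n = 3) library. Bars are means and SD, and the open symbol is LPS+CLA replicate 2. All 8 were called lower in LPS+CLA. For Tnf replicate 2 lay above every LPS+Baf A1 library, and for Cxcl10, Rsad2 and Iigp1 LPS alone was the highest group.

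Interferon-stimulated genes were mostly lower in LPS+CLA than in LPS+Baf A1. Of 37 tested members 28 fell and 4 rose (75.7% lower, 10.8% higher), with a median of -0.30. Of 15 interferon-inducible GTPases 14 fell and none rose, also at the 2 other scalings, with a median of -0.69. Rsad2, which encodes the antiviral enzyme viperin, was between 122 and 154 FPKM in the LPS+CLA libraries (median 126 FPKM), against 389.6, 359.9, 459.5, 411 and 408 FPKM in the LPS+Baf A1 libraries (-1.63 ± 0.066, adjusted p = 1.76e-10). The LPS libraries had 1499.8, 1426 and 1452 FPKM, so the levels were lowest in LPS+CLA, higher in LPS+Baf A1 and highest in LPS alone, with no overlap. For Cmpk2, the genomic neighbour of Rsad2 and a mitochondrial nucleotide kinase, the medians were 98.6 FPKM in LPS+CLA and 332 FPKM in LPS+Baf A1 (-1.69). Oasl1, a translational brake on Irf7, had a median of 102 FPKM in LPS+CLA and 252 FPKM in LPS+Baf A1 (log2 difference -1.25). Iigp1, an immunity-related GTPase that attacks the vacuoles of parasites, was between 12.4 and 15.6 FPKM in the LPS+CLA libraries (median 12.7 FPKM), against 42.9, 37.9, 48.1, 45.0 and 44.4 FPKM in the LPS+Baf A1 libraries (-1.64 ± 0.067, adjusted p = 2.17e-10). In LPS alone it lay at 186, 175 and 207 FPKM, the same order as for Rsad2. The median of Gbp5, a guanylate-binding protein that promotes inflammasome assembly, was 50.8 FPKM in LPS+CLA, against 114 FPKM in LPS+Baf A1 (-1.07). Gbp4, another guanylate-binding protein, was at 12.8 FPKM in LPS+CLA and at 26.8 FPKM in LPS+Baf A1 by median (-0.97). The 4 interferon-stimulated genes that rose did so by little, and 1 of the 4 calls was left under median-of-ratios scaling. They were Irf9, the DNA-binding subunit of the interferon-activated complex ISGF3 (0.21), Eif2ak2, the double-stranded RNA sensor PKR (0.21), Oas2 (0.11) and Zbp1 (0.08, and -0.02 at that scaling). The call of Zbp1 was also lost without LPS+Baf A1 replicate 2, 4 or 5 and without LPS+CLA replicate 1, 5 or 6, under quantile normalization (0.04) and in the fit over 5 groups. Bst2 did not pass (0.03, 95% interval -0.07 to 0.13), although it was called at 0.27 under quantile normalization, nor did the GTPase Gvin1 (0.14, 99.2% shared), though it was called at 0.16 without LPS+CLA replicate 4 and at 0.16 without replicate 6.

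The promoters of 3 genes that fell are shown because each holds 1 match, in capitals, to the interferon-stimulated response element, the site of ISGF3. The motif searched was GAAA, any 2 bases and GAAA again, on both strands within the 250 bases before the RefSeq transcript start (build GRCm38.p6), and each sequence reads 5′ to 3′ on the strand of its gene. The Cxcl10 window is chr5:92348890-92349139 on the minus strand. That of Rsad2 is chr12:26456453-26456702 on the minus strand, and that of Gbp5 is chr3:142496684-142496933 on the plus strand.
Cxcl10: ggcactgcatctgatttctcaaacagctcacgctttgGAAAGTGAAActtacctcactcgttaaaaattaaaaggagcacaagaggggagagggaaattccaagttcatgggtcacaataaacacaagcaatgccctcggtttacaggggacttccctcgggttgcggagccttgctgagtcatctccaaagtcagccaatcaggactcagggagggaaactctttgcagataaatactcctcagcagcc
Rsad2: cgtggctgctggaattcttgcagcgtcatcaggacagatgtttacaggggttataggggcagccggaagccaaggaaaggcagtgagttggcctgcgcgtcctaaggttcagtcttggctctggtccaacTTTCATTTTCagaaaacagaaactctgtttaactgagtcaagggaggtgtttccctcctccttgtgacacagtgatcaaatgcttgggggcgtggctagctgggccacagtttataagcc
Gbp5: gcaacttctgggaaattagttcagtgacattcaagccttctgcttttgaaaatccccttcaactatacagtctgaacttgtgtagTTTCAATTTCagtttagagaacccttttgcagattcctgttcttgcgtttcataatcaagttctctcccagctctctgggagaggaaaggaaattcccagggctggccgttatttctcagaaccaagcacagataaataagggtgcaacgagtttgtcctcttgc
In Rsad2 and Gbp5 the capitals are the reverse complement of the motif. The match begins 213 bases before the start in Cxcl10, 120 in Rsad2 and 165 in Gbp5. Such a match was present in 242 of the 7928 windows found for all tested genes (3.05%). It was in 11 of the 24 windows of the interferon-stimulated genes that fell (45.8%) and in 9 of the 10 windows of the interferon-inducible GTPases (90%). In the whole list of interferon-stimulated genes it was in 13 of 29 windows (44.8%), a share like that of the members that fell. Over all genes called lower it was in 96 of 1687 windows (5.69%), and over those higher in 77 of 3350 (2.3%). A match describes the letters of the window and is not a measured site.

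Genes of antigen presentation moved in both directions. In the MHC class I pathway 10 of 18 members fell and 4 rose (55.6% lower, 22.2% higher). Tap1, a subunit of the peptide transporter, was between 110.0 and 119 FPKM in the LPS+CLA libraries (median 112 FPKM), against 163, 171, 178, 172 and 168 FPKM in the LPS+Baf A1 libraries (-0.59 ± 0.03, adjusted p = 1.71e-09). The groups did not overlap for Tap1. For Psmb9, a subunit of the immunoproteasome, the medians were 35.9 FPKM in LPS+CLA and 53.5 FPKM in LPS+Baf A1 (-0.58). The class I chain H2-D1 (0.24) and its partner B2m (0.23, but 0.00 under quantile normalization) were slightly higher, and H2-K1 did not pass (0.01, 95% interval -0.05 to 0.07, called at 0.07 under quantile normalization). In the class II pathway 1 of 5 tested members fell, or 2 under median-of-ratios scaling. H2-Ab1, a class II beta chain, had a median of 5.37 FPKM in LPS+CLA and 12.1 FPKM in LPS+Baf A1 (log2 difference -0.96). Cd74, the invariant chain, did not pass (0.08, 95% interval -0.20 to 0.37). LPS+CLA replicate 2 had 30.7 FPKM of Cd74, against 16.0 to 18.0 FPKM in its mates.

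Of 10 costimulatory and checkpoint genes 5 fell and 3 rose (50% lower, 30% higher), or 5 and 1 under median-of-ratios scaling. Cd86, a ligand of CD28 on T cells, was between 7.31 and 8.80 FPKM in the LPS+CLA libraries (median 8.53 FPKM), against 28.2, 27.6, 27.4, 26.5 and 26.8 FPKM in the LPS+Baf A1 libraries (-1.60 ± 0.045, adjusted p = 8.93e-12). All LPS+CLA libraries were below the LPS+Baf A1 range for Cd86. The median of Cd40, the receptor of T-cell help, was 36.9 FPKM in LPS+CLA, against 97.9 FPKM in LPS+Baf A1 (-1.33). Icam1, an adhesion molecule, was at 72.2 FPKM in LPS+CLA and at 169 FPKM in LPS+Baf A1 by median (-1.10). Icosl fell (-0.84, -0.99 without replicate 2) with replicate 2 inside the LPS+Baf A1 range. For Vsir, which encodes the checkpoint protein VISTA, the medians were 97.3 FPKM in LPS+CLA and 53.6 FPKM in LPS+Baf A1 (0.84). Vsir thus rose, and Cd83 did not pass (-0.14, 95% interval -0.42 to 0.13).

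Among 28 genes of Toll-like receptors and NF-kB, 14 fell and 8 rose (50% lower, 28.6% higher). The receptors differed among themselves. Tlr13, which senses bacterial ribosomal RNA, had a median of 13.6 FPKM in LPS+CLA and 34.2 FPKM in LPS+Baf A1 (log2 difference -1.35). Tlr3, which senses double-stranded RNA, fell by 0.76. The median of Tlr1, a partner of Tlr2 at the cell surface, was 151 FPKM in LPS+CLA, against 98.3 FPKM in LPS+Baf A1 (0.63). Tlr1 was a rise, and Tlr7 did not pass (-0.01, 95% interval -0.11 to 0.10). Of the NF-kB genes, the subunit Nfkb2 (-0.55) and the inhibitor Nfkbie (-1.28) fell. Nfkbiz, a nuclear cofactor, was between 108 and 116 FPKM in the LPS+CLA libraries (median 112 FPKM), against 58.2, 55.7, 59.6, 59.8 and 56.8 FPKM in the LPS+Baf A1 libraries (0.93 ± 0.03, adjusted p = 2.18e-11). It rose without overlap, whereas Nfkbia, the feedback inhibitor of the classical pathway, did not pass (-0.10, 95% interval -0.24 to 0.03, called at -0.16 without replicate 2 and at -0.20 under median-of-ratios scaling).

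Genes of arginine use moved in opposite directions. Nos2, the inducible nitric oxide synthase, was between 83.4 and 164 FPKM in the LPS+CLA libraries (median 86.2 FPKM), against 211, 238, 219, 225 and 237 FPKM in the LPS+Baf A1 libraries (-1.23 ± 0.15, adjusted p = 9.36e-06, -1.39 without replicate 2). Arg1, which competes with it for arginine, was between 16.8 and 27.7 FPKM in the LPS+CLA libraries (median 26.8 FPKM), against 8.80, 8.90, 7.04, 8.22 and 7.70 FPKM in the LPS+Baf A1 libraries (1.51 ± 0.11, adjusted p = 6.27e-08). Neither gene overlapped between the groups, and replicate 2 was the LPS+CLA library nearest to LPS+Baf A1 in both. Ass1, which regenerates arginine for nitric oxide synthesis, was at 17.5 FPKM in LPS+CLA and at 53.7 FPKM in LPS+Baf A1 by median (-1.55, 38.6% shared). For Gch1, which starts the synthesis of the cofactor tetrahydrobiopterin, the medians were 37.6 FPKM in LPS+CLA and 54.0 FPKM in LPS+Baf A1 (-0.52). Arg2, the mitochondrial arginase, had a median of 2.73 FPKM in LPS+CLA and 10.3 FPKM in LPS+Baf A1 (log2 difference -1.54, 21.2% shared). These 3 fell, while the polyamine genes Odc1 (0.62, 24.3% shared) and Sms (0.48) rose. Of the 12 list members 5 were higher and 6 lower (41.7% higher, 50% lower).

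In central carbon metabolism the gene of itaconate synthesis fell. Acod1, which makes itaconate from a citrate cycle intermediate, was between 690.0 and 905 FPKM in the LPS+CLA libraries (median 706 FPKM), against 1832, 1870.2, 1866, 1844 and 1914 FPKM in the LPS+Baf A1 libraries (-1.34 ± 0.059, adjusted p = 4.49e-10). The groups did not overlap for Acod1. The median of Idh1, the cytosolic isocitrate dehydrogenase, was 64.1 FPKM in LPS+CLA, against 34.6 FPKM in LPS+Baf A1 (0.89). The mitochondrial Idh3a rose too (0.75). Over 19 genes of a list of the citrate cycle and itaconate 8 were higher and 3 lower (42.1% higher, 15.8% lower), against 42% and 21.5% of all genes. That balance became 6 and 6 under median-of-ratios scaling. Glycolysis and hypoxia response genes were mostly higher, 19 of 29 (65.5%, against 42% of all genes) with 1 lower, and 11 and 3 at that scaling. Adm, the vasodilator adrenomedullin, was at 18.8 FPKM in LPS+CLA and at 7.51 FPKM in LPS+Baf A1 by median (1.20). For Tpi1, triosephosphate isomerase, the medians were 666 FPKM in LPS+CLA and 519 FPKM in LPS+Baf A1 (0.36). Mif rose as well (0.50, 50.9% shared), the collagen hydroxylase P4ha2 fell (-0.44) and Gpi1 did not pass (0.07, 95% interval 0.00 to 0.13), though it was called at 0.07 without replicate 2 and at 0.08 without replicate 5 of LPS+CLA. Of 37 respiratory chain and ATP synthase genes 16 were higher and 2 lower (43.2% higher, 5.41% lower), but 10 and 12 under median-of-ratios scaling. Ndufa4 (0.59) and Cox5a (0.40) rose, Uqcrfs1 fell (-0.19) and Cox4i1 did not pass (-0.01, but called at -0.11 at that scaling).

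Antioxidant and pentose phosphate genes were mostly lower in LPS+CLA. NRF2 is the transcription factor that acts on antioxidant response elements. Of 26 members of a list of NRF2 targets, glutathione and pentose phosphate genes, 17 fell (65.4%) and 3 rose, with a median of -0.32. Without replicate 2 the counts were 17 and 5. Prdx1, an abundant peroxide-reducing enzyme, was between 891 and 1064 FPKM in the LPS+CLA libraries (median 1011 FPKM), against 2351, 2412, 2213, 2307 and 2284 FPKM in the LPS+Baf A1 libraries (-1.21 ± 0.04, adjusted p = 3.13e-11). The LPS libraries, at 1056, 1062 and 1362 FPKM, lay nearer to LPS+CLA. Mgst1, the microsomal glutathione transferase, had a median of 31.2 FPKM in LPS+CLA and 68.2 FPKM in LPS+Baf A1 (log2 difference -1.08). The median of G6pdx, the enzyme that opens the pentose phosphate pathway, was 144 FPKM in LPS+CLA, against 217 FPKM in LPS+Baf A1 (-0.57). Pgd, the next NADPH-producing enzyme, fell by 0.47. Malic enzyme Me1 (0.41, 28.3% shared) and Gclc, the first enzyme of glutathione synthesis (0.21), rose, and Tkt did not pass (0.07, 95% interval -0.04 to 0.18, called at 0.11 without replicate 2). The Prdx1 promoter window (chr4:116685349-116685598, plus strand, RefSeq, GRCm38.p6) is shown for its match to the antioxidant response element TGACNNNGC, in capitals as the reverse complement.
Prdx1: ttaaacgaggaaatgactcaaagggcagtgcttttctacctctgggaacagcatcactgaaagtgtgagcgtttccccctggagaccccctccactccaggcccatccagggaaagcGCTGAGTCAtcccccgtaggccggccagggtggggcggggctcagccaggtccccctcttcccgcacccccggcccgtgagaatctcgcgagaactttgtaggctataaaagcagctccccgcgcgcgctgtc
The match begins 133 bases before the start of Prdx1. That motif, searched on both strands, was in 967 of 7928 windows of all tested genes (12.2%) and in 5 of the 15 windows of the list members that fell (33.3%). Over all genes called lower it was in 202 of 1687 windows (12%), and over those higher in 417 of 3350 (12.4%).

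PPAR receptors and their target genes govern the use and storage of fatty acids. In a list of them most tested members were higher, 15 of 21 (71.4%) with 4 lower and a median of 0.45. In LPS+CLA replicate 2 their mean level was 0.082 log2 units above the LPS+Baf A1 mean, against 0.418 to 0.454 in its 5 mates, and without it the counts were again 15 and 4. Pparg, the receptor itself, was between 0.58 and 3.24 FPKM in the LPS+CLA libraries (median 2.88 FPKM), against 0.40, 0.71, 0.42, 0.66 and 0.45 FPKM in the LPS+Baf A1 libraries (1.16 ± 0.21, adjusted p = 0.000328, 1.38 without replicate 2). Its lowest LPS+CLA value, replicate 2, lay inside the LPS+Baf A1 range and the other 5 lay above it. Plin2, the coat protein of lipid droplets, was at 586 FPKM in LPS+CLA and at 273 FPKM in LPS+Baf A1 by median (1.00). For Lpl, lipoprotein lipase, the medians were 177 FPKM in LPS+CLA and 67.3 FPKM in LPS+Baf A1 (1.27). Fabp5, a fatty acid carrier, had a median of 381 FPKM in LPS+CLA and 278 FPKM in LPS+Baf A1 (log2 difference 0.45). The mitochondrial carrier Ucp2 also rose (0.46). Ppard (-0.49) and Fabp4 (-0.29) fell, and Hadha did not pass (0.04). These counts hold only for this list, which was chosen with earlier results of these data known. Acsl1 and Fabp3, fatty acid genes that fell by more than 2-fold, are not on it.

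The desaturases that act on the linoleic acid pathway differed from each other. Fads2, the desaturase of its first step, was between 0.27 and 0.74 FPKM in the LPS+CLA libraries (median 0.59 FPKM), against 1.49, 1.81, 1.18, 1.16 and 1.27 FPKM in the LPS+Baf A1 libraries (-0.61 ± 0.096, adjusted p = 9.08e-05). The LPS+CLA libraries were all below the LPS+Baf A1 libraries, at a level near 1 FPKM, where the log2(FPKM + 1) scale understates a change. Fads1, which acts further along, was between 4.32 and 8.44 FPKM in the LPS+CLA libraries (median 8.04 FPKM), against 6.57, 7.06, 6.56, 7.51 and 6.93 FPKM in the LPS+Baf A1 libraries. It overlapped and did not pass (0.07, 95% interval -0.20 to 0.34), but was called at 0.20 without replicate 2, the lowest LPS+CLA library. Over 19 genes of fatty acid synthesis, desaturation and elongation 6 rose and 7 fell (31.6% higher, 36.8% lower), against 9 and 7 without replicate 2. The median of Scd2, a stearoyl-CoA desaturase, was 4.28 FPKM in LPS+CLA, against 14.3 FPKM in LPS+Baf A1 (-1.66). Acsl1, which activates long-chain fatty acids, was at 70.8 FPKM in LPS+CLA and at 233 FPKM in LPS+Baf A1 by median (-1.66). Acss2, which activates acetate, fell by 0.55. For Acot7, an acyl-CoA thioesterase, the medians were 78.5 FPKM in LPS+CLA and 43.5 FPKM in LPS+Baf A1 (0.87). Elovl1 was another rise (0.30), and Acsl4 did not pass (0.09), though it was called at 0.12 without LPS+Baf A1 replicate 1.

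Cholesterol genes moved in both directions. Of 24 genes of synthesis and its regulation 12 rose and 2 fell (50% higher, 8.33% lower), or 10 and 4 under median-of-ratios scaling. LPS+CLA replicate 2 lay below every LPS+Baf A1 library in the mean of that list, at -0.079 log2 units relative to the LPS+Baf A1 mean, and its mates above them at 0.227 to 0.264. Stard4, a sterol carrier, had a median of 2.91 FPKM in LPS+CLA and 1.21 FPKM in LPS+Baf A1 (log2 difference 0.73). Cyp51 (0.51) and Sc5d (0.54), enzymes of the late pathway, rose, and Insig1, which holds back the pathway, fell (-0.23). Of 12 LXR receptors and targets, which answer to sterols, 6 fell and 4 rose (50% lower, 33.3% higher). The median of Abca1, a cholesterol export pump, was 44.7 FPKM in LPS+CLA, against 65.6 FPKM in LPS+Baf A1 (-0.56). Abcg1, a second such pump, was at 30.7 FPKM in LPS+CLA and at 47.9 FPKM in LPS+Baf A1 by median (-0.72). The apolipoprotein Apoc1 fell too (-0.96), although the receptor Nr1h3 rose (0.64). Apoe, the main apolipoprotein of the brain, was between 4529 and 6798 FPKM in the LPS+CLA libraries (median 4668 FPKM), against 3597, 3720.0, 3715, 3677 and 3589 FPKM in the LPS+Baf A1 libraries (0.43 ± 0.087, adjusted p = 0.000684). Its rise lost its call under quantile normalization (0.16), and replicate 2 was the highest library. Pltp rose by 0.23.

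In the eicosanoid list 5 of 18 rose and 6 fell (27.8% higher, 33.3% lower). For Ptges, the inducible prostaglandin E synthase, the medians were 154 FPKM in LPS+CLA and 365 FPKM in LPS+Baf A1 (-1.13). Alox5ap, which feeds leukotriene synthesis, had a median of 23.1 FPKM in LPS+CLA and 52.4 FPKM in LPS+Baf A1 (log2 difference -1.27). The receptors of prostaglandin E moved apart. The median of Ptger2 was 2.54 FPKM in LPS+CLA, against 6.47 FPKM in LPS+Baf A1 (-1.07). Ptger4 was at 8.94 FPKM in LPS+CLA and at 3.76 FPKM in LPS+Baf A1 by median (1.07). Of the phospholipases Pla2g7 fell (-0.95) and Pla2g15 rose (0.59, 0.70 without replicate 2). Ptgs2, the inducible cyclooxygenase, did not pass (-0.03, 95% interval -0.35 to 0.30), but was called at -0.19 without replicate 2, which had the highest LPS+CLA value.

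Lysosomal genes, products of the compartment that Baf A1 acts on, were mostly lower in LPS+CLA. Of 49 lysosomal hydrolases and membrane proteins 27 fell and 10 rose (55.1% lower, 20.4% higher), with a median of -0.23, and 31 and 6 under median-of-ratios scaling. Ctsd, the aspartic protease cathepsin D, was between 1256 and 1429.9 FPKM in the LPS+CLA libraries (median 1383 FPKM), against 2859.9, 2952, 2854, 2923 and 2896 FPKM in the LPS+Baf A1 libraries (-1.08 ± 0.032, adjusted p = 1.11e-11, 32.4% shared). The LPS libraries, at 1745, 1749.5 and 1972 FPKM, lay between the groups. For Psap, the precursor of saposins, the medians were 758 FPKM in LPS+CLA and 1090.3 FPKM in LPS+Baf A1 (-0.52). Naglu, which degrades heparan sulfate, had a median of 16.0 FPKM in LPS+CLA and 24.8 FPKM in LPS+Baf A1 (log2 difference -0.60). The cysteine protease Ctsb fell by 0.43, whereas others rose. The median of Ctsl, cathepsin L, was 600.0 FPKM in LPS+CLA, against 332 FPKM in LPS+Baf A1 (0.75, 26.3% shared). Lgmn, an asparaginyl protease, was at 908 FPKM in LPS+CLA and at 517 FPKM in LPS+Baf A1 by median (0.75). Ctss did not pass (0.01), but was called lower at -0.09 under median-of-ratios scaling and higher at 0.30 under quantile normalization.

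Of 17 V-ATPase subunits, the target of Baf A1, 4 rose and 6 fell (23.5% higher, 35.3% lower), against 1 and 10 under median-of-ratios scaling and 7 and 6 without replicate 2. Tcirg1, an isoform of subunit a, was between 91.6 and 97.9 FPKM in the LPS+CLA libraries (median 97.6 FPKM), against 134, 141, 146, 140.3 and 143 FPKM in the LPS+Baf A1 libraries (-0.54 ± 0.03, adjusted p = 4.42e-09). It fell without overlap. For Atp6v0c, a subunit of the proteolipid ring to which Baf A1 binds, the medians were 596 FPKM in LPS+CLA and 774 FPKM in LPS+Baf A1 (-0.39). Atp6v0a1, another isoform of subunit a, had a median of 38.6 FPKM in LPS+CLA and 27.8 FPKM in LPS+Baf A1 (log2 difference 0.41). Atp6v0a1 was thus a rise, and Atp6v1a did not pass (0.09, 95% interval -0.01 to 0.19, called at 0.12 without replicate 2).

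Autophagy machinery had a called share below that of all genes on FPKM as deposited with all 11 libraries. Of 38 genes 8 rose and 11 fell (50% against 63.5%), with 2 and 19 under median-of-ratios scaling and 12 and 13 without replicate 2. In these 2 alternatives 5759 and 6692 of all 9653 genes were called, and the list came nearer to the share of all genes. Atg5, a conjugation factor that another group of the series targets with an siRNA, was between 22.9 and 26.0 FPKM in the LPS+CLA libraries (median 24.4 FPKM), against 25.6, 23.5, 24.8, 24.4 and 24.9 FPKM in the LPS+Baf A1 libraries. The groups overlapped, and the difference of -0.01 had a 95% interval -0.09 to 0.08, though under median-of-ratios scaling it was called at -0.10. The lipid-binding Wipi1 (-0.41) and the initiation factor Atg13 (-0.44) fell. The kinase Ulk2 rose (0.27), and so did Gabarapl1 of the LC3 family (0.40, 23.1% shared). Gabarap did not pass (0.01, but lower at -0.09 under median-of-ratios scaling). Among 11 cargo receptors 6 rose and 4 fell (54.5% higher, 36.4% lower), or 4 and 5 at that scaling. RNA of Sqstm1, the receptor p62 whose protein is degraded by autophagy, was between 244 and 294 FPKM in the LPS+CLA libraries (median 292 FPKM), against 423, 460.4, 453, 446 and 446 FPKM in the LPS+Baf A1 libraries (-0.65 ± 0.046, adjusted p = 4.79e-08). The groups did not overlap for Sqstm1. Calcoco1 also fell (-0.47), and Optn (0.56) and Tax1bp1 (0.26) rose.

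**Figure D4:**
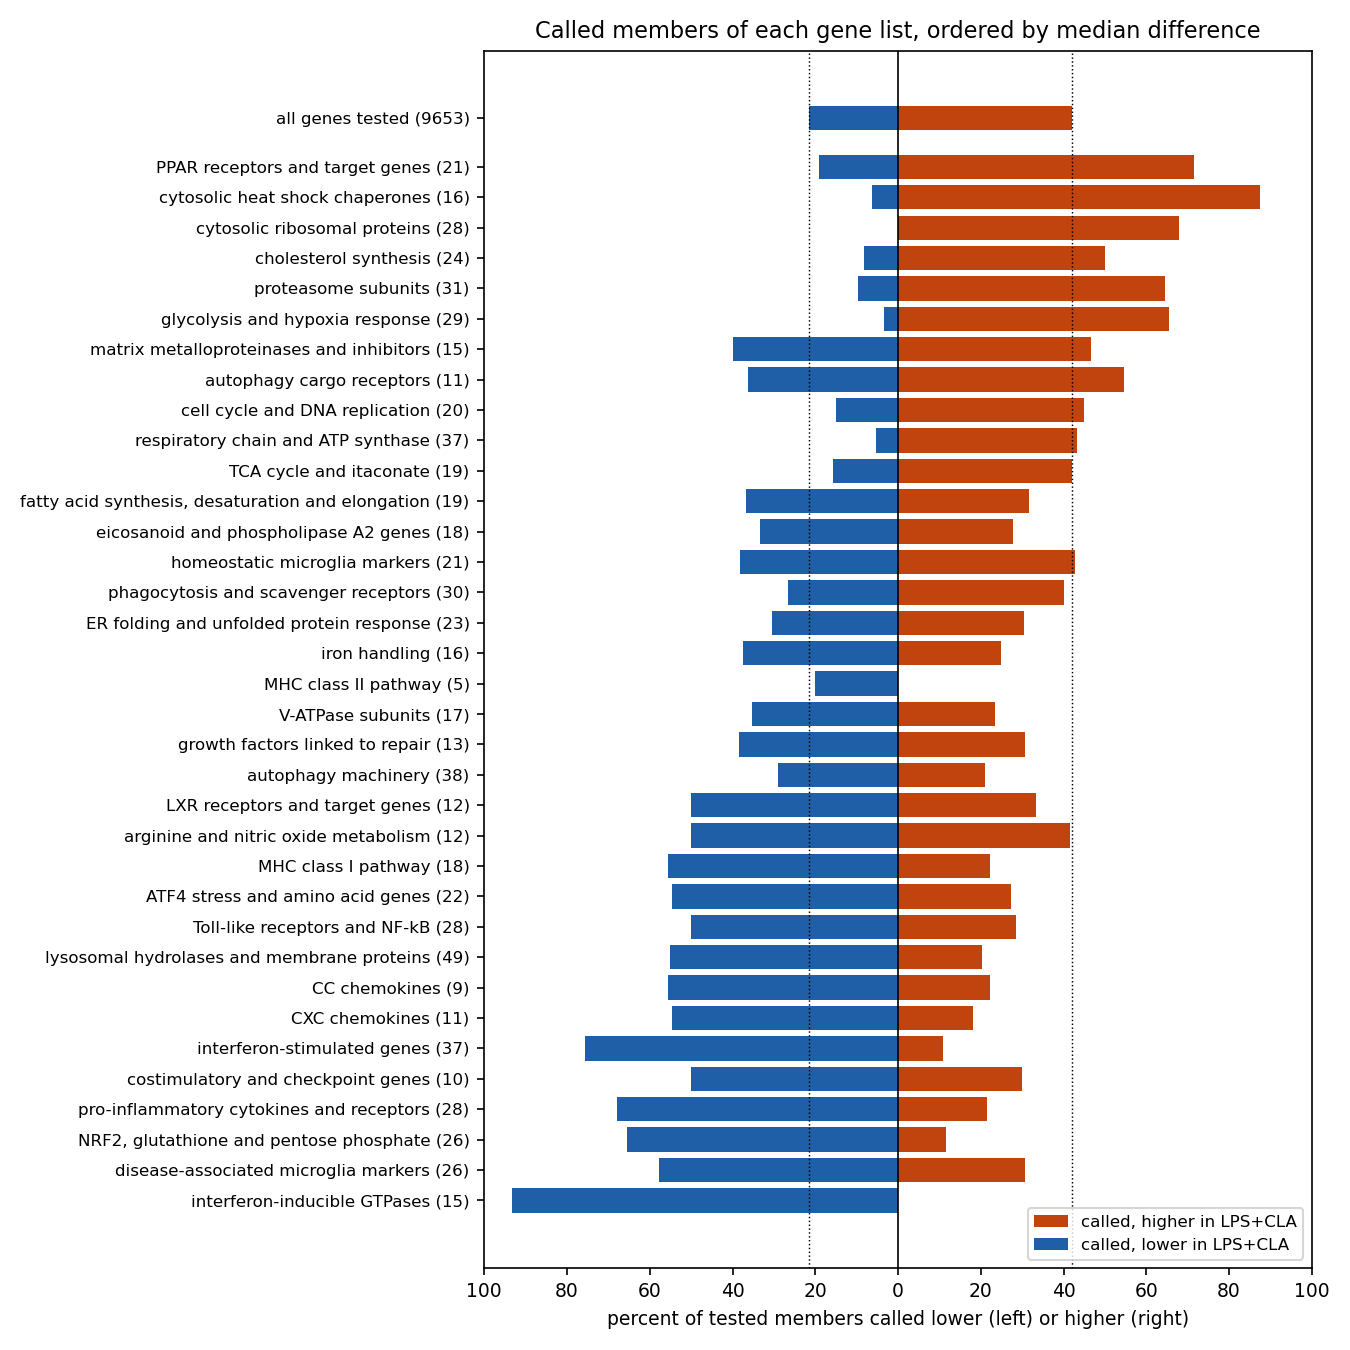
Share of the tested members of each gene list (number in brackets) called lower (blue, left) or higher (red, right) in LPS+CLA, ordered by the median difference. The top bar and dotted lines give all 9653 genes tested. Interferon-inducible GTPases had 93.3% of members lower and cytosolic heat shock chaperones 87.5% higher. The balance of the respiratory chain, cargo receptor, homeostatic microglia and phagocytosis lists turned under median-of-ratios scaling.

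Cytosolic chaperone genes were mostly higher. Of 16 cytosolic heat shock chaperones 14 rose (87.5%), with a median of 0.31, and 12 did under median-of-ratios scaling. The median of Hsp90aa1, an inducible HSP90 gene, was 154 FPKM in LPS+CLA, against 98.3 FPKM in LPS+Baf A1 (0.61, 47.5% shared). Hspa4, an HSP70 relative, was at 55.9 FPKM in LPS+CLA and at 42.8 FPKM in LPS+Baf A1 by median (0.37). The member that fell was the stress-inducible Hspa1a (-0.70, 66.3% shared). Of 31 proteasome subunits 20 rose and 3 fell (64.5% higher, 9.68% lower), or 13 and 6 at that scaling. For Psmd14, a deubiquitinase of the lid, the medians were 75.2 FPKM in LPS+CLA and 55.7 FPKM in LPS+Baf A1 (0.41). The base subunit Psmd1 rose similarly (0.38), and the catalytic Psmb6 fell (-0.32). Cytosolic ribosomal protein genes had 19 of 28 higher and none lower, but 13 and 2 after median-of-ratios scaling. Rpl4 rose by 0.33, and Rps9 did not pass (0.02, but lower at -0.08 at that scaling).

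Stress genes of the endoplasmic reticulum were split between the directions, and those of ATF4 were more often lower than higher. For folding in the endoplasmic reticulum and the unfolded protein response, 7 of 23 rose and 7 fell (30.4% higher, 30.4% lower), against 5 and 8 under median-of-ratios scaling and 11 and 7 without replicate 2. Xbp1, a transcription factor of that response, had a median of 155 FPKM in LPS+CLA and 122 FPKM in LPS+Baf A1 (log2 difference 0.32). The chaperone Hyou1 (-0.26) and the ubiquitin ligase Syvn1 (-0.35) fell, and Hspa5, the chaperone BiP, had a difference of 0.00 (95% interval -0.12 to 0.12). For ATF4 targets and amino acid genes 12 of 22 fell and 6 rose (54.5% lower, 27.3% higher). Phgdh, the first enzyme of serine synthesis, was between 1.44 and 2.52 FPKM in the LPS+CLA libraries (median 2.05 FPKM), against 7.14, 8.11, 9.01, 8.37 and 7.83 FPKM in the LPS+Baf A1 libraries (-1.60 ± 0.084, adjusted p = 2.7e-09, 47.8% shared). It fell without overlap, as did Ppp1r15a, which ends the translational block (-0.55). Shmt2 (0.38) and Atf4 itself (0.17) rose, and Cebpb did not pass (-0.06).

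Markers of microglial state moved in both directions within each list. Of 21 homeostatic markers 9 rose and 8 fell (42.9% higher, 38.1% lower), or 7 and 9 under median-of-ratios scaling. P2ry13, a purine receptor, was between 3.30 and 3.90 FPKM in the LPS+CLA libraries (median 3.62 FPKM), against 14.9, 15.4, 13.8, 15.8 and 15.1 FPKM in the LPS+Baf A1 libraries (-1.79 ± 0.049, adjusted p = 5.79e-12). The groups did not overlap for P2ry13, and this marker fell. The median of P2ry12, the purine receptor that marks resting microglia, was 3.09 FPKM in LPS+CLA, against 6.53 FPKM in LPS+Baf A1 (-0.88). Cx3cr1, the fractalkine receptor, was at 4.55 FPKM in LPS+CLA and at 11.8 FPKM in LPS+Baf A1 by median (-1.23). For Mertk, an engulfment receptor, the medians were 11.1 FPKM in LPS+CLA and 21.9 FPKM in LPS+Baf A1 (-0.90). These 3 also fell. In the other direction, Fcrls was between 77.9 and 178 FPKM in the LPS+CLA libraries (median 171 FPKM), against 60.6, 55.1, 62.5, 58.7 and 62.6 FPKM in the LPS+Baf A1 libraries (1.32 ± 0.18, adjusted p = 2.68e-05, 1.51 without replicate 2). Fcrls rose, with replicate 2 the LPS+CLA library nearest to LPS+Baf A1. Gas6, the bridge between dying cells and Mertk or Axl, had a median of 43.5 FPKM in LPS+CLA and 12.6 FPKM in LPS+Baf A1 (log2 difference 1.56). The median of C1qc, a chain of the complement starter C1q, was 1049.8 FPKM in LPS+CLA, against 537 FPKM in LPS+Baf A1 (0.87). C1qb rose with it (0.72), and Tmem119 did not pass (0.13, 95% interval -0.06 to 0.32). Of the 10 defining markers of microglia and macrophages 3 rose and 5 fell, with a median of -0.29. Their mean level was -0.266 to -0.089 log2 units in LPS+CLA and -0.033 to 0.016 in LPS+Baf A1, relative to the LPS+Baf A1 mean. Among them Aif1 rose (0.39) and Ptprc did not pass (0.03).

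Disease-associated microglia markers, which are known to rise in the Trem2-dependent state around damage, were more often lower, 15 of 26 with 8 higher (57.7% lower, 30.8% higher). Trem2, the lipid-sensing receptor, was between 4.37 and 5.62 FPKM in the LPS+CLA libraries (median 4.71 FPKM), against 14.0, 15.3, 13.9, 15.8 and 17.0 FPKM in the LPS+Baf A1 libraries (-1.48 ± 0.069, adjusted p = 7.9e-10). It fell without overlap. Cst7, a cathepsin inhibitor, was at 29.6 FPKM in LPS+CLA and at 112 FPKM in LPS+Baf A1 by median (-1.84). For Igf1, a growth factor, the medians were 22.9 FPKM in LPS+CLA and 60.4 FPKM in LPS+Baf A1 (-1.41). Axl, an engulfment receptor, had a median of 29.3 FPKM in LPS+CLA and 61.4 FPKM in LPS+Baf A1 (log2 difference -0.99). These 3 fell, and Timp2 (1.16) and osteopontin, Spp1 (0.52), rose. Lyz2, lysozyme, did not pass (-0.02, 95% interval -0.07 to 0.03, called at -0.12 under median-of-ratios scaling).

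In the list of phagocytosis and scavenger receptors 12 of 30 rose and 8 fell (40% higher, 26.7% lower), or 10 and 11 under median-of-ratios scaling. Clec4n, the fungal receptor dectin-2, was between 51.9 and 65.3 FPKM in the LPS+CLA libraries (median 59.2 FPKM), against 261, 255, 197, 239.7 and 232 FPKM in the LPS+Baf A1 libraries (-1.98 ± 0.069, adjusted p = 4.9e-11). LPS alone, with a mean of 64.7 FPKM, lay near LPS+CLA. The median of Clec4a2, an inhibitory lectin of the same family, was 252 FPKM in LPS+CLA, against 107 FPKM in LPS+Baf A1 (1.17). Pros1, another bridge to Mertk, was at 11.7 FPKM in LPS+CLA and at 5.22 FPKM in LPS+Baf A1 by median (1.02). Both of these rose, whereas Clec4d fell (-0.41) and Fcgr1 did not pass (0.03).

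Of 15 metalloproteinases and inhibitors 7 rose and 6 fell (46.7% higher, 40% lower), or 6 and 6 under median-of-ratios scaling. For Mmp8, the neutrophil collagenase, the medians were 25 FPKM in LPS+CLA and 47.1 FPKM in LPS+Baf A1 (-0.88). Mmp2 fell as well (-0.68), and Timp1 did not pass (-0.39, 95% interval -1.01 to 0.22). LPS+CLA replicate 2 had 4.15 FPKM of Timp1, against 13.9 to 17.6 FPKM in its mates. Of 13 growth factors linked to repair 5 fell and 4 rose (38.5% lower, 30.8% higher). Pdgfb, a chain of platelet-derived growth factor, had a median of 0.83 FPKM in LPS+CLA and 3.57 FPKM in LPS+Baf A1 (log2 difference -1.29). The activin subunit Inhba fell too (-0.97). Of 16 iron genes 4 rose and 6 fell (25% higher, 37.5% lower). The median of Tfrc, the transferrin receptor for iron uptake, was 21.4 FPKM in LPS+CLA, against 12.6 FPKM in LPS+Baf A1 (0.66). Cp, the ferroxidase ceruloplasmin, was at 243 FPKM in LPS+CLA and at 134 FPKM in LPS+Baf A1 by median (0.85). Fth1, ferritin heavy chain, was between 29539 and 33972 FPKM in the LPS+CLA libraries (median 32238 FPKM), against 44266, 43726, 41857, 42579 and 42658 FPKM in the LPS+Baf A1 libraries (-0.42 ± 0.034, adjusted p = 1.47e-07). It was lower in every LPS+CLA library than in any LPS+Baf A1 library, but lost its call under quantile normalization (-0.03). Cell cycle and DNA replication genes had 9 of 20 higher, such as Cdk1 (0.50) and Rrm1 (0.56), and 3 lower, among them the proliferation marker Mki67 (-0.66). Those shares, 45% and 15%, were near the ones of all genes, and the list mean of replicate 2 was -0.136 log2 units relative to the LPS+Baf A1 mean, against 0.086 to 0.138 in its mates.

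Markers of other cells were in part lower in LPS+CLA. They were low, except for those of border macrophages and monocytes. The sum of 15 astrocyte markers was 11.2 to 16.4 FPKM in LPS+CLA and 19.2 to 22.4 FPKM in LPS+Baf A1, with 1 of the 15 at 0 in each group. Of the 8 tested 5 fell, led by the glutamate transporter Slc1a2 (-0.95), while Gfap, named after its values were seen, did not pass (0.07, 95% interval -0.20 to 0.34). The 12 oligodendrocyte lineage markers summed to 61.8 to 71.3 FPKM in LPS+CLA and 76.8 to 84.2 FPKM in LPS+Baf A1, and of 5 tested 3 fell, Olig1 among them (-1.14), and 2 rose. For 13 neuron markers the sums were 0.99 to 8.42 FPKM in LPS+CLA and 8.58 to 12 FPKM in LPS+Baf A1, and the tubulin Tubb3 fell (-0.82). The neuron list lay at -1.39 log2 units in replicate 2 and at -0.452 to -0.1 in its mates. Fibroblast, mural and endothelial markers, a list that holds Fn1, summed to 34.1 to 51.7 FPKM in LPS+CLA and 55.9 to 69.8 FPKM in LPS+Baf A1, although Igfbp7 in it rose (0.52). The mean log2 level of that list was -0.794 in LPS+CLA replicate 2 and -0.013 to 0.041 in its mates, relative to the LPS+Baf A1 mean, and without replicate 2 the list had 6 members higher and 2 lower in place of 2 and 2. Border macrophage and monocyte markers had 5 of 8 higher, such as Cbr2 (1.14), and 1 lower, with sums of 485 to 726 FPKM in LPS+CLA and 531 to 583 FPKM in LPS+Baf A1. Of 2 tested neutrophil and lymphocyte markers Camp fell (-0.92), and without replicate 2 both did. That list lay at 0.369 log2 units in replicate 2 and at -0.795 to -0.614 in its mates, with sums of 6.07 to 21.7 FPKM in LPS+CLA and 8.45 to 11.6 FPKM in LPS+Baf A1. In bulk samples fewer cells of a type and less RNA per cell cannot be told apart, and the part of these cells in the results on matrix, lipid and growth factor genes was not tested.

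The mean levels of 8 lists, picked after their values were seen, did not overlap between the treatments. The same held for further lists, among them CXC chemokines and disease-associated microglia markers. The CXC list lay at -0.532 to -0.432 log2 units in LPS+CLA and at -0.174 to 0.171 in LPS+Baf A1, relative to the LPS+Baf A1 mean. Some lists overlapped, such as CC chemokines, at -0.083 to 0.012 in LPS+CLA and -0.039 to 0.052 in LPS+Baf A1. Interferon-inducible GTPases lay at -0.72 to -0.479 log2 units in LPS+CLA and at -0.075 to 0.074 in LPS+Baf A1. For pro-inflammatory cytokines and receptors the ranges were -0.524 to -0.206 in LPS+CLA and -0.048 to 0.038 in LPS+Baf A1. For the NRF2 list they were -0.37 to -0.325 in LPS+CLA and -0.081 to 0.049 in LPS+Baf A1. In the cytokine, interferon-stimulated and PPAR lists replicate 2 was the LPS+CLA library nearest to LPS+Baf A1, and for glycolysis and lysosomal genes it was the farthest.

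**Figure D5:**
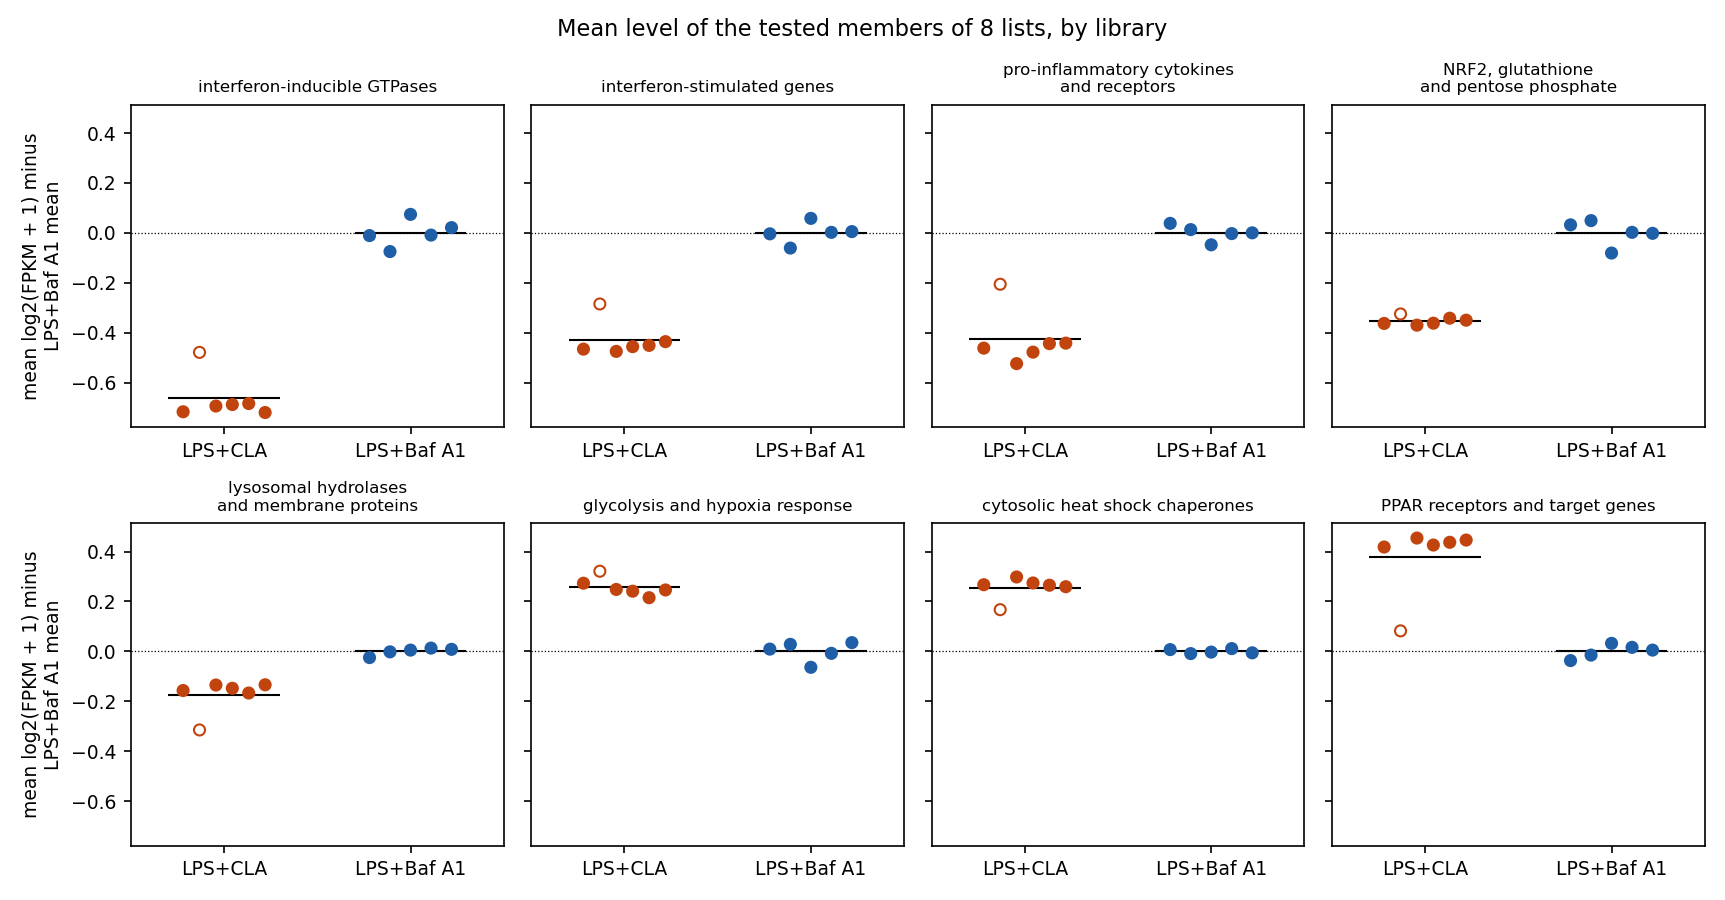
Mean log2(FPKM + 1) of the tested members of 8 lists in each LPS+CLA (red, n = 6) and LPS+Baf A1 (blue, n = 5) library, relative to the LPS+Baf A1 mean. Lines are group means and the open symbol is LPS+CLA replicate 2. The LPS+CLA libraries lay at -0.72 to -0.479 for interferon-inducible GTPases and at 0.082 to 0.454 for PPAR genes, where the lowest is replicate 2.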

How the data were processed

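The RNA was poly(A)-selected and sequenced on an Illumina NovaSeq, per the labels' protocols. The authors deposited 1 table of FPKM per gene symbol and library. The submitters' processing notes name CASAVA 1.7, fastp 0.18.0, Bowtie2 2.2.8, HISAT2 and StringTie 1.3.1. Their order was, like the build and annotation, not given in the sources used here. Read counts are not part of the table, so the depth is unknown and no counting error is given. FPKM sums over the listed genes were 508534 to 517064 in LPS+CLA and 517259 to 525127 in LPS+Baf A1. Strand is not stated, so reads of overlapping and antisense genes cannot be told apart. The table had 15726 lines for 15725 symbols, and the first of a duplicated pair (Plin2, alike in these libraries) was used.

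From the table, genes reaching 1 FPKM in at least 3 of the 11 libraries were tested on log2(FPKM + 1), where the added 1 understates the change of low genes. limma 3.58.1 (R 4.3.3, trend and robust moderation, 9 residual degrees of freedom, no covariate) gave two-sided p-values, adjusted by Benjamini-Hochberg over 9653 genes. The threshold for a call was an adjusted p of 0.05. The steps were tested on simulated data. A gene was named as 1 of a fixed set (Atg5, Pparg, Fads1, Fads2, Tnf, Il1b, Nos2, Arg1, Il10 and Il6), as 1 of the 15 largest rises or falls described above with predicted genes left out, or as a list member, up to 4 per direction by adjusted p and up to 2 uncalled by level. Not all genes the rule gives are named, and a few are not reported here. Members and lists were chosen with earlier results of these data known. Shared transcript sequence was counted as 50-base stretches of GENCODE vM21 transcripts, and promoters are RefSeq's (GRCm38.p6). The windows were also searched for a kappaB, a hypoxia response and a C/EBP-ATF motif, without a test. Among all genes tested these were in 21.8%, 22.9% and 2.01% of windows. For genes at least 2-fold higher the shares were 29.3%, 9.33% and 1.33%, and for those at least 2-fold lower 27.9%, 14.3% and 3.57%. The alternatives were another pseudocount, 2 other filters and no filter, 2 other scalings, a fit over all 5 groups, array weights, a replicate block and each library left out.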

Additional observations from a re-analysis of the deposited data

Results flagged for a closer look

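In each treated group the highest or lowest library was set against the others, for every gene named, by its gap to the next library over the range of the group (Dixon's test at the 95% level). Of 462 groups of values 104 had such a library, where chance gives about 5%, and 90 of them were due to LPS+CLA replicate 2. In that library the median over all listed genes was 2.85 FPKM, against 3.16 to 3.25 FPKM in its mates, and 9112 genes reached 1 FPKM, against 9384 to 9414. Among cytokines, chemokines and their receptors it lay above its mates for Ccl3 at 841, Cxcl10 at 348, Cxcl2 at 232, Cxcl9 at 22.5, Il1b at 4229.7, Il1rn at 1023, Il6 at 60.1 and Tnf at 246 FPKM. Below its mates in that group were the values of Ccl6 at 63.2, Ccr3 at 6.12 and Il10 at 18.1 FPKM. Among interferon, antigen presentation and Toll-like receptor genes it lay above its mates for Cd40 at 44.8, Cd74 at 30.7, Gbp5 at 64.9, Gvin1 at 66.3, H2-D1 at 2580.3, H2-K1 at 2294, Icam1 at 109 and Icosl at 9.41 FPKM. High there too were Nfkbia at 279, Nfkbie at 18.6, Rsad2 at 154 and Tap1 at 119 FPKM. Below its mates in that group were the values of Cd83 at 2.75 and Tlr13 at 8.58 FPKM.

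Among lipid and sterol genes it lay above its mates for Acsl1 at 91.8, Acsl4 at 38.7, Apoe at 6798, Pla2g7 at 171, Ptges at 253 and Ptgs2 at 216 FPKM. There it was below them for Alox5ap at 14.2, Cyp51 at 2.34, Fads1 at 4.32, Lpl at 101, Pla2g15 at 14.3, Plin2 at 408, Pparg at 0.58 and Scd2 at 1.84 FPKM. Among metabolism and stress genes it lay above its mates for Acod1 at 905, Arg2 at 4.23, Idh1 at 70.4, Nos2 at 164 and Ppp1r15a at 16.8 FPKM. It was below them there for Arg1 at 16.8, Hsp90aa1 at 132, Hyou1 at 73.1, Ndrg1 at 6.49, Odc1 at 26.6, Psmd14 at 65.4, Rpl4 at 308 and Slc13a3 at 349.9 FPKM. Low there too were Sms at 14.7, Sqstm1 at 244 and Tkt at 71.8 FPKM. Among autophagy and lysosome genes it lay above its mates for Tax1bp1 at 55.0 FPKM. It was below them there for Atp6v0a1 at 29.6, Ctsd at 1256, Ctsl at 389 and Lgmn at 736 FPKM. Among microglial state, phagocytosis, matrix and growth factor genes it lay above its mates for Axl at 35.6, Cst7 at 41.7, Spp1 at 1549 and Tmem119 at 3.56 FPKM. Below its mates in that group were the values of Aif1 at 196, C1qc at 815, Clec4a2 at 179, Fcrls at 77.9, Gas6 at 23.9 and Timp1 at 4.15 FPKM. Among markers of other cells it lay below its mates for Fn1 at 1.97 and Tubb3 at 0.48 FPKM. Among the remaining genes it lay above its mates for Dusp2 at 48.7, Gp6 at 1.81, Has1 at 12.8, Hp at 18.7, Osbpl3 at 10.0, Slpi at 26.0 and Urah at 35.3 FPKM. Below its mates in that group were the values of Cd55 at 3.61, Ddx3y at 4.86, Eif2s3y at 6.35, Kdm5d at 1.46, Pim2 at 57.2, Slc35g1 at 4.34, Tgfbi at 4.47 and Trp53rka at 32.2 FPKM. Low there too was Uty at 2.43 FPKM.

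The other libraries were singled out for a few genes each. LPS+CLA replicate 3 stood out for Tcirg1 at 91.6 FPKM (the others 97.3 to 97.9 FPKM). LPS+CLA replicate 4 stood out for Cd86 at 7.31 FPKM (the others 8.31 to 8.80 FPKM). LPS+CLA replicate 6 stood out for Acot7 at 84.1 FPKM (the others 77.8 to 80.1 FPKM) and Hadha at 37.5 FPKM (the others 34.4 to 35.1 FPKM). LPS+Baf A1 replicate 1 stood out for Ass1 at 50.2 FPKM (the others 53.5 to 54.0 FPKM) and Csf1 at 7.42 FPKM (the others 5.68 to 6.08 FPKM). LPS+Baf A1 replicate 2 stood out for Clec4a2 at 102 FPKM (the others 107 to 108 FPKM), Il10 at 2.25 FPKM (the others 3.59 to 3.95 FPKM) and Tlr7 at 109 FPKM (the others 121 to 124 FPKM). LPS+Baf A1 replicate 3 stood out for Gpi1 at 274 FPKM (the others 294 to 300.2 FPKM), Il18 at 32.3 FPKM (the others 35.3 to 36.2 FPKM), Mgst1 at 63.8 FPKM (the others 68.0 to 68.5 FPKM) and Pgd at 230.4 FPKM (the others 243 to 246 FPKM). LPS+Baf A1 replicate 5 stood out for Acsl1 at 240.3 FPKM (the others 231 to 234 FPKM). No explanation of these values was tested.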

How the results depend on the processing

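Of 20 alternatives, all kept the number of called, higher and lower genes within 1.5 times, but the share of higher genes among those called depended on the scaling, as given above. With a pseudocount of 0.1 in place of 1, the genes that differed at least 2-fold numbered 512 in place of 284. Leaving out each library in turn gave 5763 to 6692 called genes, 3810 to 4548 higher, 1953 to 2144 lower and 279 to 292 at least 2-fold, with the highest count of called genes without LPS+CLA replicate 2. A stricter filter of 5 FPKM left 7230 genes, of which 4918 were called, and no filter 14907, of which 6801 were.

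The replicate numbers are shared by the groups, but nothing in the labels says that they pair the libraries. The deviations of same-numbered libraries from their group means correlated at -0.0838 to 0.0347 over genes, and in none of the 5 pairs was the same-numbered library the one that correlated best. With the replicate number as a block, 5688 genes were called, 3747 higher and 1941 lower, and 279 at least 2-fold. The calls of Kdm5d, Ppbp and Zbp1 were lost with the block (adjusted p = 0.077, 0.111 and 0.0968, limma).

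For the 228 tested genes named, 4467 of 4539 gene and setting pairs kept direction and call, 39 lost a call, 28 gained one and 5 turned. Turned were B2m under quantile normalization (0.00), and Ctss (-0.09), Gabarap (-0.09), Rps9 (-0.08) and Zbp1 (-0.02) under median-of-ratios scaling. These are shifts of small differences by another scaling, and the cause was not tested. The counts within lists under both scalings and without LPS+CLA replicate 2 were added after seeing the data, and 34 of them moved by over 1.5 times. Depth is unknown, so no lower limit of detection can be set.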
